A study of Mus musculus with 32 samples.

Results

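GABA-A receptors are the chloride channels that carry most fast inhibition in the brain. The genes described here are 7 of their subunit genes, Gabra2, Gabra3, Gabra4, Gabra5, Gabrb1, Gabrb2 and Gabrd, taken by their symbols from the 25239 genes of the exon count tables. Amygdala RNA of wild-type (WT) mice was sequenced after acute stress, after chronic stress or at baseline. Each mouse had received 100 mM 4-thiouridine (4sU) in DMSO, or DMSO alone, into the amygdala 24 h before the tissue of both sides was taken. 4sU is a uridine analogue that enters newly made RNA and, after alkylation of the RNA, is read as a T-to-C conversion. There were 4 chronic 4sU, 3 chronic DMSO, 5 acute 4sU, 5 acute DMSO, 5 baseline 4sU and 4 baseline DMSO libraries. All 26 libraries therefore come from mice with an injected brain, and none from an uninjected one. The labels do not say what the stress was, how old the mice were, or whether replicates were separate mice, so each p-value speaks of the spread among these libraries, which may be partly technical. The libraries held 16150316 to 21228741 exon counts each, and every one of the 7 genes had at least 200 counts in every library.

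A GABA-A receptor is a ring of subunits, usually alpha and beta subunits joined by a gamma or a delta subunit. GABA binds where beta and alpha subunits meet, and the alpha subunit decides much of the receptor's place in the cell and its response to benzodiazepines. Gabra2 encodes the alpha subunit tied to the calming action of benzodiazepines in mice, and Gabra3 an alpha subunit found in monoamine neurons and in the amygdala. Gabra4 and Gabrd encode partners in receptors outside the synapse that give steady inhibition, as in striatum, thalamus and dentate gyrus. Gabra5 encodes the alpha subunit best known from extrasynaptic receptors of hippocampal pyramidal cells. Gabrb1 and Gabrb2 encode beta subunits, and the Gabrb2 product is part of the most common synaptic receptor.

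The genes lie mostly in clusters, and the positions below are those of the count tables, in mm10. Gabra2 is at chr5:70958392-71095849 on the minus strand, and Gabra4, at chr5:71569734-71658308 on the minus strand, faces Gabrb1, at chr5:71657921-72149572 on the plus strand. Gabrb2 is at chr11:42419707-42632591 on the plus strand, Gabra5 at chr7:57407669-57510059, Gabra3 at chrX:72432676-72656919 and Gabrd at chr4:155384979-155398069, the last 3 on the minus strand. The 5′ ends of Gabra4 and Gabrb1 overlap head to head and share 238 exonic bases, which is 5.67% of the exonic bases of Gabra4. Gabra5 shares 148 exonic bases with the antisense gene Gm9962. No source used here says that counting was by strand, so reads in these stretches cannot be assigned to either gene.

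Start regions are shown for the 3 genes that changed together in the comparisons below (Gabra2, Gabra4 and Gabrb2) and for Gabrb1, which starts against Gabra4. The sequences are RefSeq windows of build GRCm38.p6, from 250 bases before to 50 bases after the annotated start, 5′ to 3′ on the gene's strand, and capitals mark a GC box or a TATA box.
Gabra2, chr5:71095800-71096099, minus strand: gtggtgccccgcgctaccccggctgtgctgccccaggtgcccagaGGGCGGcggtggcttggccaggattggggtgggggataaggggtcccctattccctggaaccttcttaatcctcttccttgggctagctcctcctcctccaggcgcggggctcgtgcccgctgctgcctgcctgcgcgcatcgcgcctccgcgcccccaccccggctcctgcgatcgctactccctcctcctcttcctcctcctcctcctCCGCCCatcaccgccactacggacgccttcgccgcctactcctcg
Gabra4, chr5:71658259-71658558, minus strand: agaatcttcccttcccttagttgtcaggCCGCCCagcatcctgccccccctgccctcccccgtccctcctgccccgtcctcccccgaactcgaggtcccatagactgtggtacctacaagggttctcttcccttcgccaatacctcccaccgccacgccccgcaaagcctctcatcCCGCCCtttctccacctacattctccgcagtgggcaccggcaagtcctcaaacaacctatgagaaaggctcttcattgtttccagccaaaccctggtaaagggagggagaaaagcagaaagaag
Gabrb1, chr5:71657671-71657970, plus strand: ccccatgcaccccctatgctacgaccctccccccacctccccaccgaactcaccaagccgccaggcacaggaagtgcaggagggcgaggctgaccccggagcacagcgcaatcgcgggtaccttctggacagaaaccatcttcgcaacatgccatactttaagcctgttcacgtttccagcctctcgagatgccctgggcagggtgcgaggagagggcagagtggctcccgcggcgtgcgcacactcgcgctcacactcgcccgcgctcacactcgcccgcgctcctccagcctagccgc
Gabrb2, chr11:42420190-42420489, plus strand: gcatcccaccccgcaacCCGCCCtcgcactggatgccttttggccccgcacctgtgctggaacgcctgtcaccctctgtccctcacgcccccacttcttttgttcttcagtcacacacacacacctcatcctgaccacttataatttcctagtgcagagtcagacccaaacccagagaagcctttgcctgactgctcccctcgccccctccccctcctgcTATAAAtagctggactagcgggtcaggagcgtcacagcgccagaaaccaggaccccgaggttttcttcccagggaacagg

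An entry was found for 6 of the 7 genes, with more than 1 start for Gabra3, Gabrb1 and Gabrb2. Of the motifs searched on both strands, the GC box (GGGCGG) is in 35.7% of the 32851 promoter windows of this length, and it was found 2 times each in the Gabra2 and Gabra4 windows and 1 time in that of Gabrb2. The TATA box (TATAAA) is in 13.6% of windows, and in the Gabrb2 window it begins at position -30 from the start, position -1 being the base before it. The glucocorticoid response element (AGAACA and TGTTCT with any 3 bases between) was in 3 of all windows and in none of these genes' windows, which says only that these letters are not there. The Gabra2 window is 70.0% G and C, that of Gabrb1 66.0%, those of Gabrb2 and Gabra4 59.0% and 58.7%. The Gabra3 window, not shown, has 43.0%.

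Levels are given as CPM (counts scaled to library size) after trimmed-mean (TMM) scaling of all 26 libraries, and between genes as CPM per kilobase of exon. Per kilobase, Gabrb2 had the highest median of the 7 genes, 38.0, with a range of 18.3 to 62.9 over the libraries. Gabra3, Gabra5, Gabrd and Gabra4 followed with medians of 26.2, 26.1, 25.6 and 25.4 CPM per kilobase, and the order among these 4 changed between libraries. Gabra2 had a median of 19.1 and Gabrb1 of 12.7 CPM per kilobase, and Gabrb1 was the lowest of the 7 in 20 of 26 libraries. The 7 genes together made up 40.7% to 54.6% of the summed CPM per kilobase of all 19 subunit genes in a library.

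The spread between libraries differed among the genes. Gabra3 was the steadiest, at 83.4 to 133 CPM, a 1.59-fold range. Gabrd was the most variable, at 11.5 to 97.4 CPM, an 8.44-fold range, and Gabra5 ran from 33.4 to 118 CPM. Within acute DMSO mice Gabra5 had 118, 109, 46.5, 41.5 and 33.4 CPM, so the group itself split into high and low libraries, while in acute 4sU mice it stayed between 58.2 and 81.5 CPM.

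**Figure D1:**
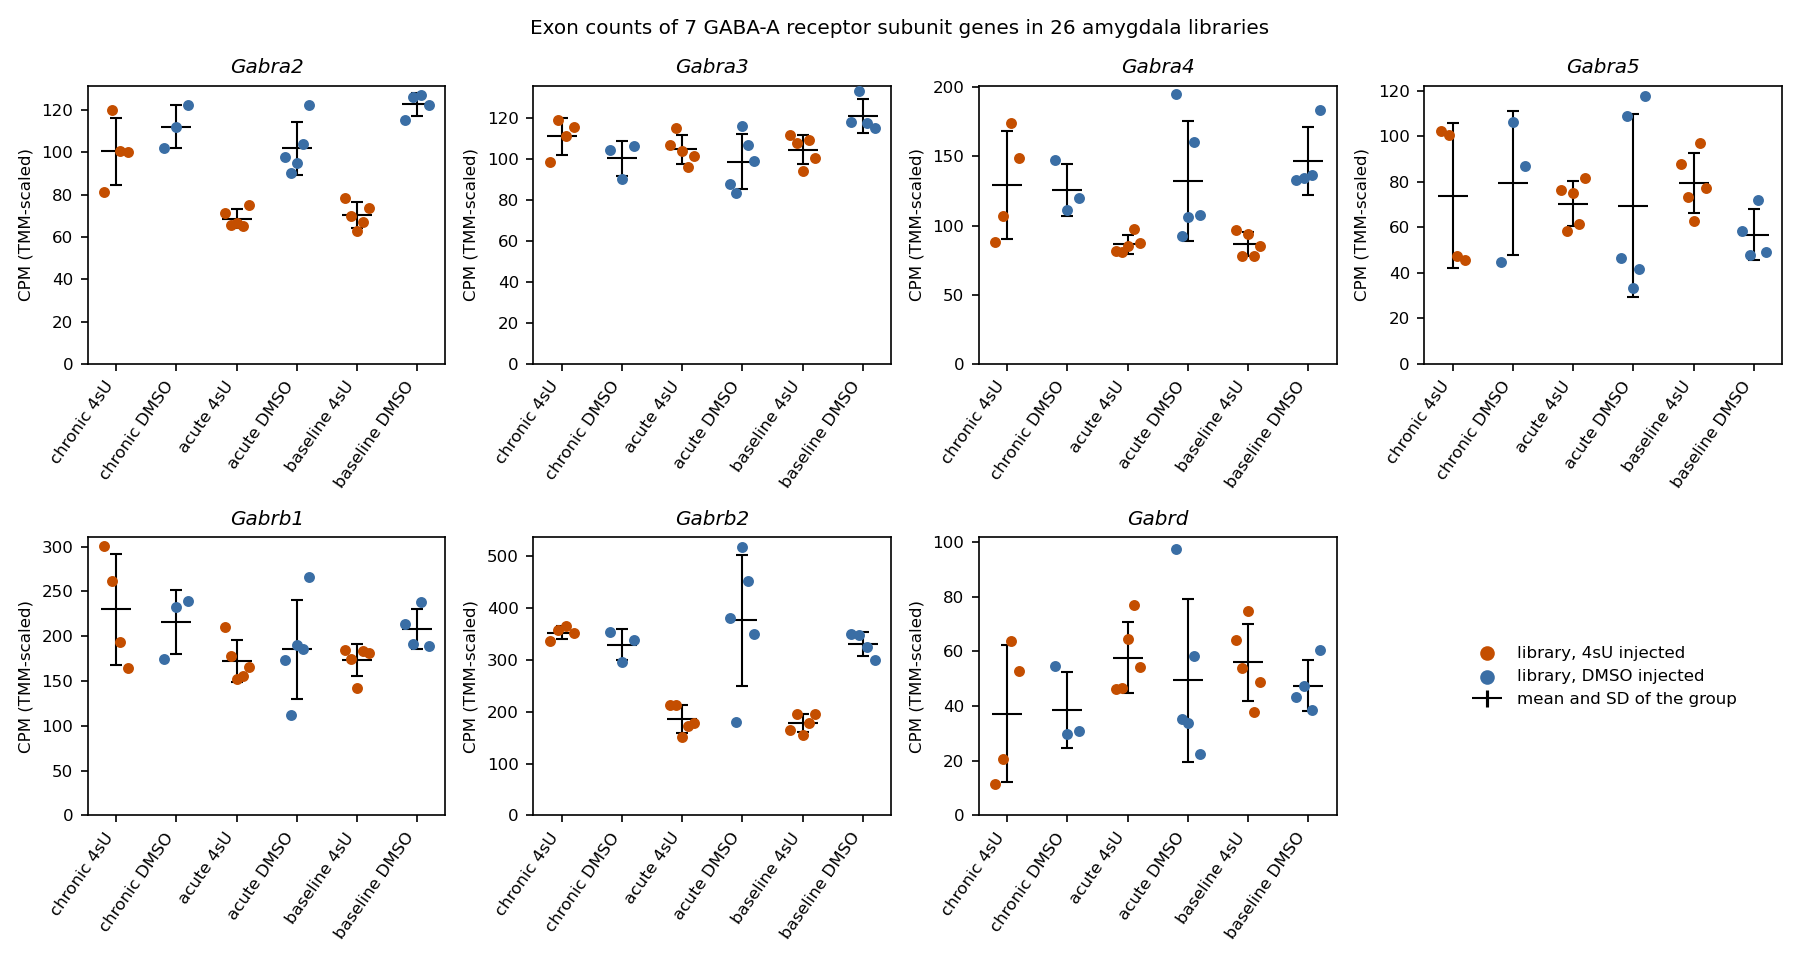
CPM (TMM-scaled) of each gene by group, with a point per library, the group mean as a dash and the SD as a bar; orange is 4sU and blue DMSO. Gabrb2 lies at 336 to 366 CPM in chronic 4sU mice and at 151 to 213 CPM in acute and baseline 4sU mice. Gabra5 and Gabrd spread widely within acute DMSO and chronic 4sU mice. In chronic DMSO mice Gabra5 also runs from 44.8 to 107 CPM, and Gabrd from 29.8 to 54.6 CPM.

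The libraries themselves fell into sets that bear on every comparison. The 10 acute and baseline 4sU libraries had 16.1% to 17.4% of their reads in annotated 3′ UTR intervals and a myelin marker level (mean log2(CPM + 1)) of 7.27 to 7.83, against 18.2% to 23.9% and 8.21 to 9.29 in the other 16. Of 16310 genes, 3103 did not overlap between these sets. Gabra2 was among them, with 62.8 to 78.7 CPM in the 10 and 81.5 to 127 CPM in the 16, and so was the gamma subunit gene Gabrg1, with 40.7 to 52.6 CPM and 58.2 to 103 CPM. The remaining 6 genes overlapped, Gabrb2 narrowly, with 151 to 213 CPM in the 10 and 181 to 518 CPM in the 16. Within the 16, acute DMSO replicate 2 stood apart, with 23.9% of reads in 3′ UTR intervals where the next highest library had 20.3%. Its exon counts differed from those of the other acute DMSO libraries by a chi-square per degree of freedom of 86.9 to 119, where the other pairs of that group had 12.9 to 51.1. Each comparison that sets one of these sets against the other cannot be told apart from this division. The 13 amygdala region markers had medians from 1.08 CPM for Tfap2d, which was at 0 in at least 1 library, to 252 CPM for Meis2. All 15 markers of striatal medium spiny neurons and all 15 of glutamatergic neurons were also present, and the striatal marker Drd1 ran from 20.5 to 199 CPM between libraries.

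Acute stress was compared with baseline in mice of the same injection. None of the 7 genes passed the threshold, an adjusted p (Benjamini-Hochberg, edgeR quasi-likelihood test, two-sided) under 0.05, in 4sU mice, where 0.269% of all genes did, or in DMSO mice, where 2.51% did. In 4sU mice the log2 fold changes lay between -0.17 and 0.06. Gabrb2 had 213, 213, 151, 172 and 178 CPM in acute 4sU mice, against 164, 196, 156, 178 and 195 CPM in baseline 4sU mice. These groups overlapped over most of their range, and the log2 fold change was 0.06 ± 0.18 (SE).

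In DMSO mice the smallest p-values were those of Gabra3 and Gabra2. Gabra3 had 87.5, 83.4, 116, 107 and 98.7 CPM in acute DMSO mice, against 118, 133, 117 and 115 CPM in baseline DMSO mice. The log2 fold change was -0.28 ± 0.09 with an adjusted p of 0.11, and the acute library at 116 CPM reached into the baseline range. Gabra2 had 98.1, 90.2, 94.9, 104 and 123 CPM in acute DMSO mice, against 115, 126, 127 and 123 CPM in baseline DMSO mice, which gives -0.25 ± 0.08 on the log2 scale (adjusted p = 0.11). Without acute DMSO replicate 5, the highest of its group, the Gabra2 difference was -0.35 and passed (adjusted p = 0.014), and without acute DMSO replicate 3 the Gabra3 difference was -0.35 and passed (adjusted p = 0.047). Averaged over both injections, 0 of 7 genes passed, beside 2.39% of all genes, and without acute DMSO replicate 5 Gabra2 passed there too, at -0.19 (adjusted p = 0.047). For the difference between the acute effects of the 2 injections, edgeR called no gene of the table (0.0%, with 916 genes at an unadjusted p under 0.05 and 20 called by DESeq2), and so no member.

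The acute DMSO libraries also differed in their neuron markers. Replicates 1, 3 and 4 had glutamatergic marker levels of 4.32, 3.65 and 4.34, more than 1 log2 unit under the median of all libraries, and replicates 2 and 5 had 5.87 and 5.93. Gabra5 followed this split, with 46.5, 33.4 and 41.5 CPM in the first set and 109 and 118 CPM in the second. When those 3 libraries and chronic DMSO replicate 1 (4.08) were left out, a choice made after seeing the data, only 2 acute DMSO libraries remained. Gabra3 and Gabra4 were then lower in acute than in baseline DMSO mice (-0.40 and -0.54, both with adjusted p = 0.015). The libraries left out held the highest values of the acute DMSO group, 195 and 160 CPM for Gabra4 and 116 and 107 CPM for Gabra3. These lower values were therefore set in part by the choice. With all libraries the Gabra4 value was -0.14 ± 0.17 (adjusted p = 0.73). The libraries left out were also those lowest in Gabra5 in their group, so calls of Gabra5 without them are set by the choice and are not read as results. Without acute DMSO replicate 2, 0 of 7 genes passed, Gabrb2 being at 0.39 on the log2 scale (adjusted p = 0.070). The part of tissue composition in these values was not tested, and in bulk tissue fewer cells of a type and less RNA per cell cannot be told apart.

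Chronic stress was compared with baseline in the same way. In 4sU mice, Gabrb2, Gabra4 and Gabra2 were higher and no member was lower, beside 26.9% of all genes called higher and 56.5% called in either direction. Gabrb2 rose most clearly, with 336, 358, 366 and 352 CPM in chronic 4sU mice, against 164, 196, 156, 178 and 195 CPM in baseline 4sU mice. The groups did not overlap, as was the case for 44.9% of all genes, and the log2 fold change was 0.97 ± 0.07 (adjusted p = 3.5e-09). Gabra2 had 81.5, 120.2, 101 and 100.1 CPM in chronic 4sU mice, against 78.7, 70.0, 62.8, 67.2 and 73.7 CPM in baseline 4sU mice, again without overlap (0.49 ± 0.09, adjusted p = 0.00015).

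Gabra4 had 88.1, 107, 174 and 149 CPM in chronic 4sU mice, against 96.9, 78.4, 94.3, 78.1 and 85.4 CPM in baseline 4sU mice. The groups overlapped through chronic replicate 1, the log2 fold change was 0.56 ± 0.18 (adjusted p = 0.015), and without chronic 4sU replicate 3 it was 0.39 and did not pass (adjusted p = 0.062). Gabrb1 had 301, 261, 193 and 165 CPM in chronic 4sU mice, against 185, 174, 142, 184 and 181 CPM in baseline 4sU mice. Its log2 fold change of 0.39 ± 0.16 fell just outside the threshold (adjusted p = 0.051) and passed without chronic 4sU replicate 3 (0.47, adjusted p = 0.033) or replicate 4 (0.55, adjusted p = 0.004), and DESeq2 called it with all libraries (0.41, adjusted p = 0.0096). Gabra3, Gabra5 and Gabrd did not pass, with log2 fold changes of 0.07 ± 0.07, -0.13 ± 0.30 and -0.61 ± 0.41. Scaled to 25 pan-neuronal genes in place of TMM, the median of all genes moved by 0.27, 7156 genes were higher and 2120 lower (4336 and 4761 with TMM), and Gabra3 (0.34, adjusted p = 0.00074) and Gabrb1 (0.66, adjusted p = 0.00073) passed as well, Gabra3 close to that shift.

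In DMSO mice no member passed, nor did any gene of the table (0.0%, with 913 at an unadjusted p under 0.05 and 11 called by DESeq2). Gabrb2 had 354, 296 and 338 CPM in chronic DMSO mice, against 349.7, 349, 325 and 300.3 CPM in baseline DMSO mice, with a log2 fold change of -0.0024 ± 0.083. Gabra2 had 102, 112 and 122 CPM in chronic DMSO mice, against 115, 126, 127 and 123 CPM in baseline DMSO mice (-0.13 ± 0.10). Gabra3 had 104, 90.2 and 106 CPM in chronic DMSO mice, all below the 115 to 133 CPM of baseline DMSO mice. Groups did not overlap for 7.94% of all genes, and the Gabra3 log2 fold change of -0.27 ± 0.08 had an adjusted p of 0.67.

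The chronic effect itself differed between the injections for 4 members, beside 38.0% of all genes. Of the groups in this test only baseline 4sU lies among the libraries that stood apart in 3′ UTR reads and myelin markers. These calls cannot be told apart from that division. The difference, 4sU effect minus DMSO effect on the log2 scale, was 0.97 ± 0.11 for Gabrb2 (adjusted p = 2.9e-06), 0.62 ± 0.14 for Gabra2 (adjusted p = 0.0016), 0.77 ± 0.27 for Gabra4 (adjusted p = 0.036) and 0.33 ± 0.11 for Gabra3 (adjusted p = 0.020). The value for Gabra4 did not pass when any of 8 single libraries was left out (baseline 4sU replicate 2, 4 or 5, baseline DMSO replicate 4, chronic 4sU replicate 3 or 4, chronic DMSO replicate 2 or 3), with differences of 0.60 to 0.78 and adjusted p of 0.051 to 0.086. Counted over 3′ UTR reads in place of exons, neither Gabra4 (0.76, adjusted p = 0.055) nor Gabra3 (0.24, adjusted p = 0.090) passed. Averaged over the injections, Gabrb2 (0.48 ± 0.05, adjusted p = 1.6e-06) and Gabra2 (0.18 ± 0.07, adjusted p = 0.036) were higher, beside 43.8% of all genes called. Gabra2 lost that call without baseline 4sU replicate 2, 3 or 4 or chronic DMSO replicate 3 (0.16 to 0.18, adjusted p = 0.053 to 0.066) and with 3′ UTR reads (0.12, adjusted p = 0.14), and Gabrb1 gained one without chronic 4sU replicate 4 (0.31, adjusted p = 0.026).

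**Figure D2:**
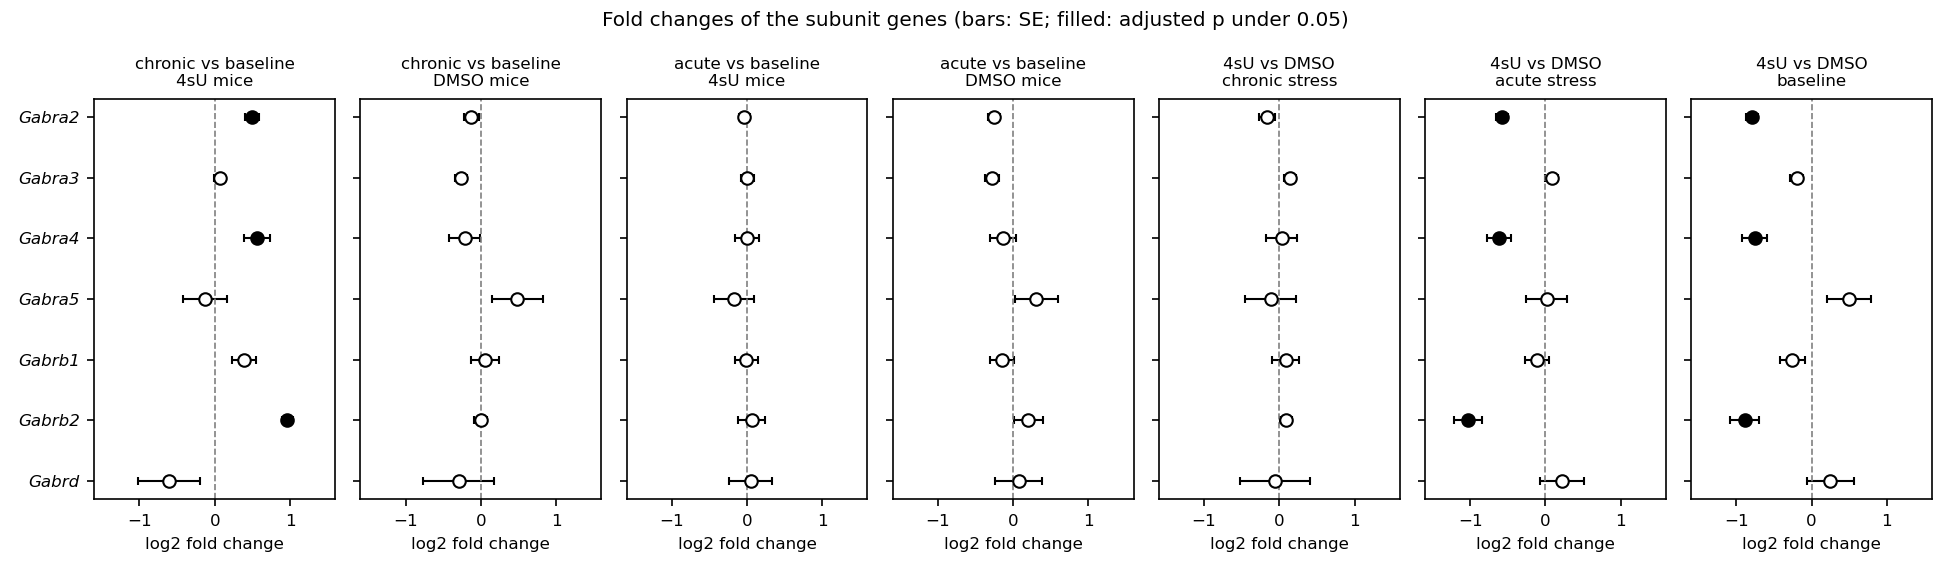
Log2 fold changes of the 7 genes (horizontal axis) with their SE in 7 comparisons, filled where the adjusted p was under 0.05. Gabra2, Gabra4 and Gabrb2 are filled in chronic against baseline 4sU mice, to the right of 0, and in 4sU against DMSO under acute stress and at baseline, to the left of 0.

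Chronic and acute stress were compared within an injection in a fit of all 6 groups. In 4sU mice the same 3 genes were higher under chronic stress, Gabrb2 by 0.93 ± 0.17 (adjusted p = 9.7e-05), Gabra2 by 0.55 ± 0.09 (adjusted p = 3.7e-05) and Gabra4 by 0.58 ± 0.19 (adjusted p = 0.013), beside 23.9% of all genes called higher and 47.2% in either direction. Gabrb2 and Gabra2 did not overlap between the groups, as was the case for 43.1% of all genes. Without chronic 4sU replicate 3 the value for Gabra4 was 0.41 (adjusted p = 0.087). Gabrb1, at 0.42 ± 0.18 (adjusted p = 0.059), passed without acute 4sU replicate 1 or chronic 4sU replicate 3 or 4 (adjusted p = 0.018 to 0.041). In DMSO mice none of the 7 passed, beside 1.78% of all genes called, with log2 fold changes from -0.36 for Gabrd to 0.22 for Gabrb1. This comparison shares the chronic 4sU libraries with the one against baseline, so the calls are not separate evidence.

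The injections were compared in each state. Under chronic stress no member differed between 4sU and DMSO mice, beside 0.137% of all genes called, and the log2 fold changes lay between -0.16 and 0.14. Under acute stress Gabrb2 (-1.03 ± 0.18, adjusted p = 0.00013), Gabra4 (-0.62 ± 0.16, adjusted p = 0.0034) and Gabra2 (-0.57 ± 0.08, adjusted p = 7.3e-06) were lower in 4sU mice, beside 24.8% of all genes called lower and 48.3% in either direction. Of the 7, Gabra2 alone did not overlap between the groups, as was the case for 29.0% of all genes. Gabrb2 overlapped only through acute DMSO replicate 2, at 181 CPM, with 349.7 to 518 CPM in the other acute DMSO libraries and at most 213 CPM in acute 4sU mice, and without that library its value was -1.22 (adjusted p = 6.6e-08). Without the acute DMSO libraries low in glutamatergic markers, which leaves 2, Gabrb2 was lower by less (-0.52, adjusted p = 0.025), Gabra4 did not pass (-0.21, adjusted p = 0.18) and Gabrd was higher (1.00, adjusted p = 0.0047). Gabrd also passed there without acute DMSO replicate 1 alone (0.62, adjusted p = 0.039). The libraries left out had 97.4 (replicate 1), 58.3 and 33.8 CPM of Gabrd, against 35.3 and 22.3 CPM in the 2 kept. Both Gabrd calls came with the loss of its highest acute DMSO values and are not read as results. With all libraries the Gabrd value was 0.22 ± 0.29 (adjusted p = 0.56). The highest Gabrb2 and Gabra4 values of the group were also left out, so their smaller differences were set in part by that choice.

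At baseline the same 3 genes were lower in 4sU mice, beside 20.7% of all genes called lower and 41.9% in either direction. Gabrb2 was at 164, 196, 156, 178 and 195 CPM in baseline 4sU mice, against 349.7, 349, 325 and 300.3 CPM in baseline DMSO mice (-0.89 ± 0.19, adjusted p = 0.0010). Gabra4 was at 78.1 to 96.9 CPM in baseline 4sU mice, against 133, 135, 137 and 183 CPM in baseline DMSO mice (-0.75 ± 0.17, adjusted p = 0.0012), and the Gabra2 value was -0.79 ± 0.08 (adjusted p = 4.9e-07). Of the 7 genes, 5 did not overlap between the groups at baseline, all lower in 4sU mice, beside 45.9% of all genes that did not overlap in either direction. All calls between 4sU and DMSO, and between chronic stress and the other states in 4sU mice, cross the division of the libraries described above. The mean chronic effect and the difference between the chronic effects also use the baseline 4sU libraries and cross it.

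Of the subunit genes outside the set, Gabrg1, which encodes a gamma subunit and lies on chromosome 5 like Gabra2, Gabra4 and Gabrb1, was higher in chronic than in baseline 4sU mice (0.79 ± 0.13, adjusted p = 7.2e-05). It was lower in 4sU than in DMSO mice under acute stress (-0.77 ± 0.13, adjusted p = 9.4e-05) and at baseline (-0.93 ± 0.14, adjusted p = 3e-05). The chronic comparison and the one at baseline both use the baseline 4sU libraries. Gabrr2, which encodes a rho subunit, had a median of 2.07 CPM. It had 2.07 to 3.08 CPM in chronic, 2.06 to 3.19 CPM in acute and 1.34 to 1.91 CPM in baseline 4sU mice. Its level was higher in chronic than in baseline 4sU mice (0.70 ± 0.25, adjusted p = 0.021), beside 26.9% of all genes called higher. Gabrg3, Gabre and Gabrq did not pass there, with log2 fold changes of 0.19 ± 0.10, -0.18 ± 0.21 and 0.10 ± 0.21. In chronic against baseline DMSO mice none of these 5 passed.

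Genes that place or move the receptor changed in both directions in the same comparisons. Of 24 scaffold, trafficking and clustering genes, 8 were higher and 11 lower in chronic against baseline 4sU mice, beside 26.9% of all genes called higher and 56.5% in either direction, with a median log2 fold change of -0.10 (all genes, -0.02). Nlgn2, the adhesion protein of inhibitory synapses, had -0.66 ± 0.05, and Trak2, a mitochondrial transport adaptor that binds GABA-A receptors, had 0.69 ± 0.07. Shisa7, an auxiliary receptor subunit, had a log2 fold change of -0.72 ± 0.07 (the 3 with adjusted p of 1.3e-09, 6.8e-08 and 1.4e-07). Of 17 genes of GABA metabolism, transport, chloride balance and GABA-B receptors, 9 were higher and 5 lower, with a median of 0.25, beside the same shares of all genes. Slc12a2, the chloride importer NKCC1, which makes GABA less inhibitory, had 1.05 ± 0.07 (adjusted p = 4.6e-10), and Slc12a5, the chloride exporter KCC2 of mature neurons, had -0.63 ± 0.05 (adjusted p = 6.6e-09). This comparison crosses the division of the libraries, with myelin marker levels of 8.73 to 9.04 in chronic and 7.27 to 7.83 in baseline 4sU mice. These changes cannot be told apart from it, and the cells they come from were not tested. In chronic against baseline DMSO mice 0 of the 24 and 0 of the 17 passed. In acute against baseline DMSO mice only Hap1, which helps return receptors to the surface, did (-0.38 ± 0.10, adjusted p = 0.044), beside 2.51% of all genes called. A single call over both lists is near that share and is not read as a result about them. In acute against baseline 4sU mice none of either list passed, beside 0.269% of all genes called. With pan-neuronal scaling the median of all genes moves as given above, and directions here are relative to TMM.

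Some of the genes varied in opposite ways between libraries of the same group. In chronic 4sU mice, the libraries high in Gabrd and Gabra4 were low in Gabra5 and Gabrb1. Gabrd had 11.5 and 20.5 CPM in replicates 1 and 2 and 64.0 and 52.8 CPM in replicates 3 and 4. Gabra5 had 102 and 101 CPM in the first pair and 47.3 and 45.6 CPM in the second, and Gabrb1 had 301 and 261 CPM against 193 and 165 CPM. The striatal marker levels of these libraries, which include the dopamine receptor genes Drd1 and Drd2, were 5.91 and 6.72 in the first pair and 8.19 and 7.93 in the second, and the glutamatergic marker levels were 5.73 and 5.71, then 4.76 and 4.79.

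This did not hold in every library, since acute DMSO replicate 3 had low levels of both Gabrd (33.8 CPM) and Gabra5 (33.4 CPM). Over all 26 libraries, the lowest Gabrd level, 11.5 CPM, was in the library with the lowest striatal marker level, 5.91, and the highest, 97.4 CPM, in the one with the highest, 8.58. That library, acute DMSO replicate 1, also had the highest Gabra4 level, 195 CPM, with 46.5 CPM of Gabra5. The ratio of Gabrd to Gabra5 in CPM ran from 0.11 to 2.09. After removal of group means, and with all genes sharing the same libraries, Pearson's r of log2(CPM + 1) over 26 libraries was 0.91 between Gabrd and Gabra4, -0.71 between Gabrd and Gabra5, -0.64 between Gabra4 and Gabra5 and 0.68 between Gabra3 and Gabrb2, given as a description. By the same measure, the genes most like Gabrd among 11898 were Penk (0.986), Ppp1r1b (0.979) and Pcp4l1 (0.977), the first 2 of which were in the striatal marker list. The genes most like Gabra5 were Cpne6 (0.981), Nsmf (0.978) and Mical2 (0.978).

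Those most like Gabra4 were Cdk17, Lzts3 and Tiam2 (0.969 to 0.972), those most like Gabrb1 were Ptprs, Pcnx and Osbpl6 (0.959 to 0.967), and those most like Gabrb2 were Kcna2, Ncam1 and Ttbk2 (0.961 to 0.977). Gabra2 and Gabra3 had looser matches, Creg2 at 0.863 and Tceanc2 at 0.831. The part of dissection or of cell types in this variation was not tested.

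**Figure D3:**
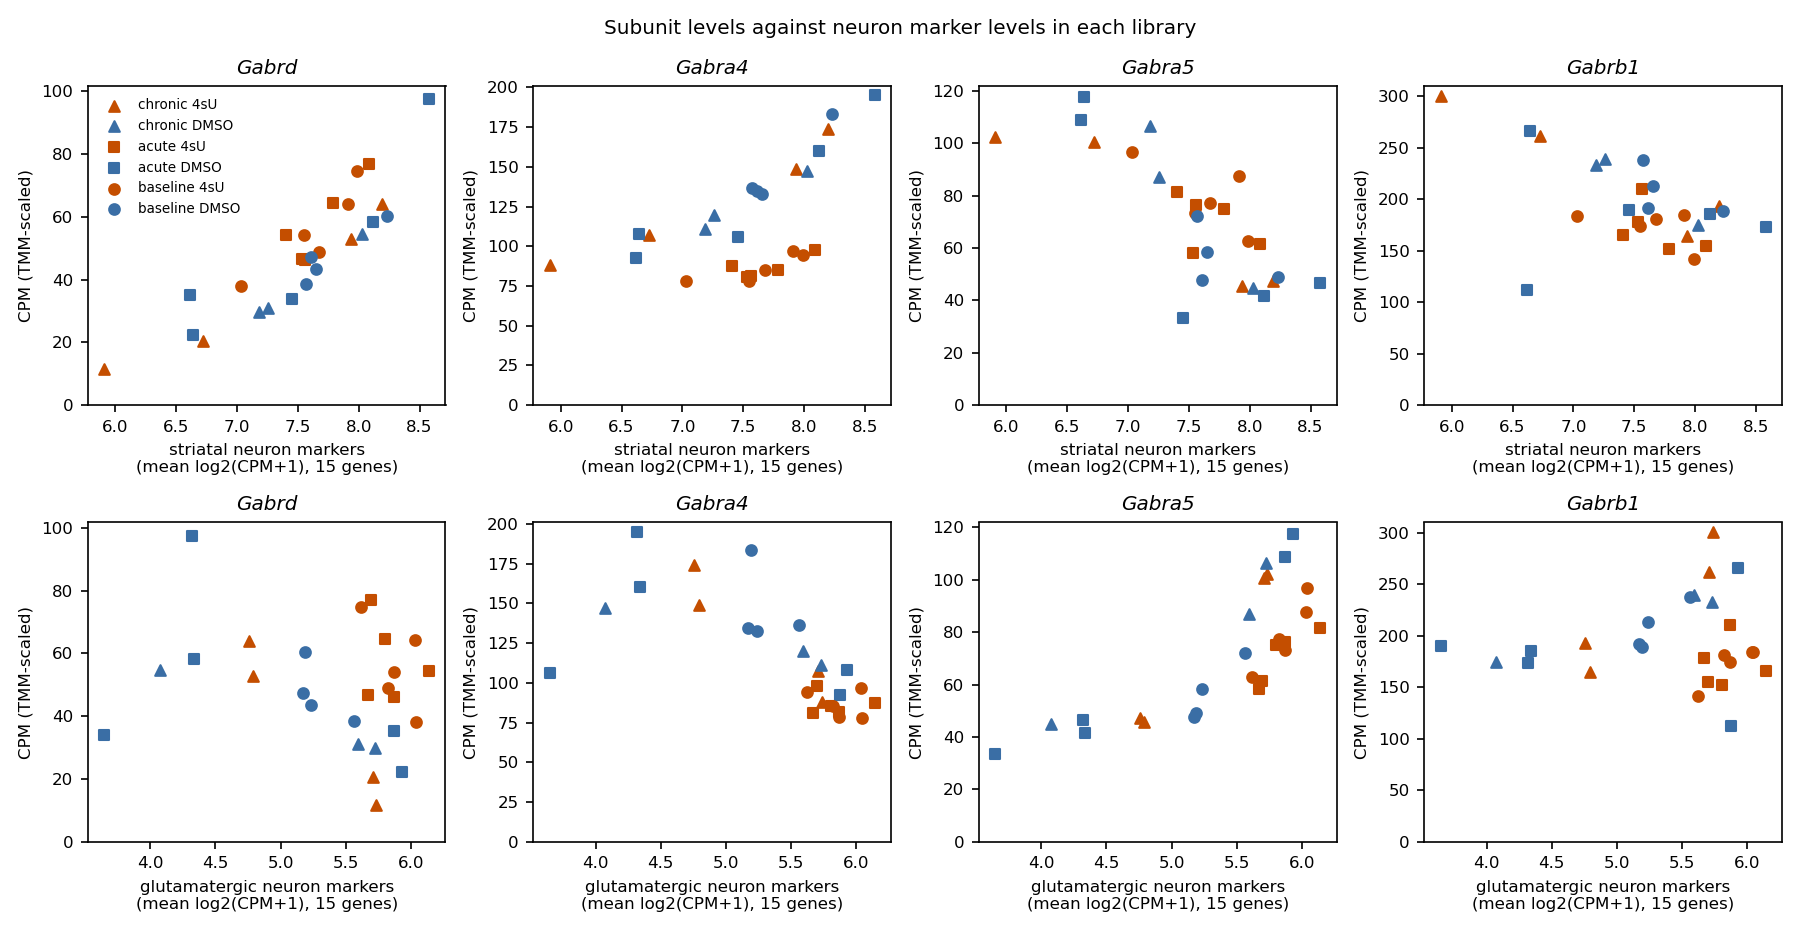
CPM (TMM-scaled) of 4 subunit genes against the mean log2(CPM + 1) of 15 striatal (upper row) and 15 glutamatergic (lower row) neuron markers, a point per library. Gabrd runs from 11.5 to 97.4 CPM as the striatal marker level runs from 5.91 to 8.58, and Gabra5 is at 33.4 to 47.3 CPM in the libraries with glutamatergic levels of 3.65 to 4.79.

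T-to-C conversion in the 3′ UTR reads shows how much of a gene's RNA carries 4sU from the 24 h before sampling. Gabra3 had the highest pooled conversion of the members in 4sU mice. Its conversion was 0.0931%, 0.148%, 0.129% and 0.159% of covered T positions in chronic 4sU mice, 0.157%, 0.0811%, 0.0899%, 0.0841% and 0.0775% in acute 4sU mice, and 0.151%, 0.0506%, 0.174%, 0.0478% and 0.0975% in baseline 4sU mice. The 12 DMSO libraries had 0.00967% to 0.0338%, below every 4sU library. Pooled, 607 conversions in 546915 covered T positions gave 0.111% in 4sU mice, and 109 in 508400 gave 0.0214% in DMSO mice. The deposited number of reads with a conversion was 407 in 4sU mice and 109 in DMSO mice.

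The log2 ratio of 4sU over DMSO for Gabra3 was 2.79 ± 0.41 under chronic stress, 2.26 ± 0.33 under acute stress and 2.09 ± 0.34 at baseline (adjusted p = 5.9e-10, 5.9e-10 and 7.5e-08, edgeR with covered T positions as offset). The shares of all 8662 genes tested that were called in either direction were 14.1%, 11.6% and 7.2% in the same order. Gabra3 ranked 402, 299 and 308 by its ratio, and the median log2 ratio of all genes was 0.62, 0.37 and 0.20. It had the highest conversion of the 5 best-covered members in 14 of 14 4sU libraries and in 3 of 12 DMSO libraries, and of all 7 in 12 of 14 and 1 of 12. The overall conversion rate was 0.0400% to 0.0778% in 4sU and 0.0228% to 0.0318% in DMSO libraries. Relative to it, Gabra3 was still higher in 4sU mice (1.48, 1.20 and 1.28 under chronic stress, under acute stress and at baseline, adjusted p = 0.0046, 0.0039 and 0.0026).

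Gabrb2 was the other labelled member, with 0.0350% to 0.110% in the 14 4sU libraries, all above the 0.0154% to 0.0323% of the 12 DMSO libraries. Its log2 ratios were 1.64 ± 0.29 under chronic stress, 1.31 ± 0.25 under acute stress and 0.80 ± 0.26 at baseline (adjusted p = 6.4e-07, 2.6e-06 and 0.036). Relative to the overall rate they were 0.31, 0.29 and 0.0019, and none passed (adjusted p = 0.42, 0.35 and 1.00). The baseline call was lost without baseline 4sU replicate 1 or 3 or baseline DMSO replicate 1, 2 or 4 (0.72 to 0.84, adjusted p = 0.066 to 0.15). The highest Gabrb2 value, 0.110%, was in chronic 4sU replicate 4, and the other chronic 4sU libraries had 0.0448% to 0.0578%.

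The remaining 5 members did not pass in any state. Gabrb1 was the best covered of these, with 394 conversions in 1678106 covered T positions, 0.0235%, in 4sU mice and 337 in 1599563, 0.0211%, in DMSO mice. At baseline its 4sU to DMSO ratio was 1.15, with 2 SE on either side reaching from 0.756 to 1.76, and the ratio of Gabra3 was 4.25 (2.64 to 6.85). Relative to the overall rate Gabrb1 was lower in 4sU mice under chronic stress (-1.36, adjusted p = 0.00042), and Gabra4 was lower under acute stress (-1.48, adjusted p = 0.0033). The overall rate averaged 0.0627% in chronic 4sU and 0.0250% in chronic DMSO libraries. Without rescaling Gabrb1 was at -0.12 ± 0.34 (adjusted p = 0.91) and Gabra4 at -0.44 ± 0.39 (adjusted p = 0.62), so neither is a called fall in conversion itself. Acute DMSO replicate 3 had the highest Gabra4 rate of its group, 0.0555%, from 28 conversions in 12 reads. Gabra2 had 0.0349% in 4sU and 0.0211% in DMSO mice when pooled. Under chronic stress its log2 ratio was 1.17 ± 0.49 (adjusted p = 0.10), and it passed without chronic 4sU replicate 4 (1.43) or chronic DMSO replicate 1 (1.70), both with an adjusted p of 0.045. Gabrd had 7 conversions in 33443 positions in 4sU mice and 4 in 23899 in DMSO mice, and labelling was not detectable at this depth.

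**Figure D4:**
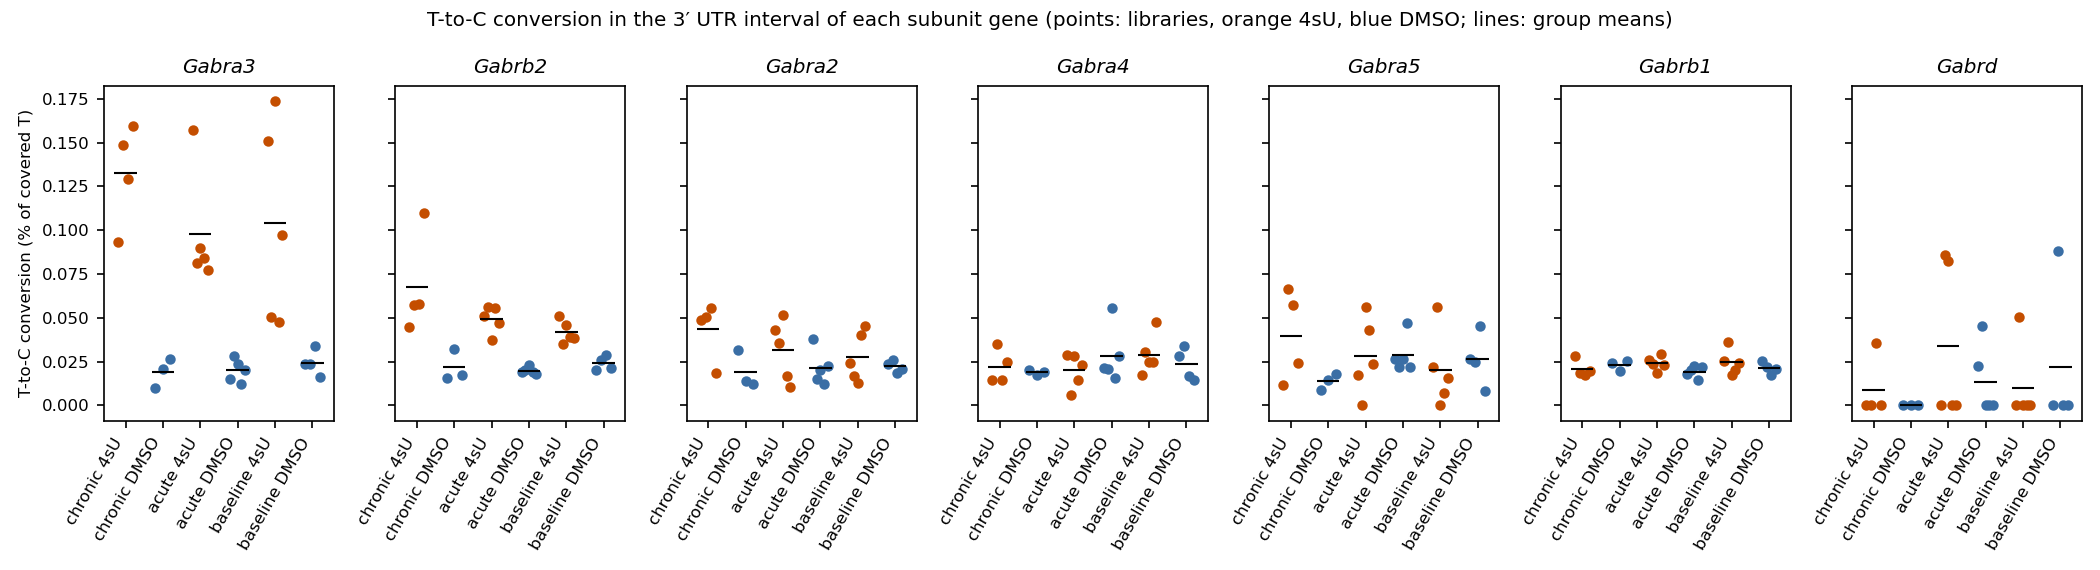
T-to-C conversion as a percentage of covered T positions in the 3′ UTR interval of each gene, a point per library and a line at the group mean; orange is 4sU and blue DMSO. All 14 4sU libraries lie above all 12 DMSO libraries for Gabra3 and for Gabrb2. For Gabrb1 the 2 injections overlap, at 0.0172% to 0.0364% in 4sU and 0.0143% to 0.0254% in DMSO libraries.

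Between stressed and baseline 4sU mice, no member's conversion passed the test, which is relative to each library's overall rate. Chronic against baseline, the log2 ratio was -0.01 ± 0.27 for Gabra3 and 0.28 ± 0.20 for Gabrb2, beside 0.3% of all genes called. Acute against baseline, they were -0.14 ± 0.26 and 0.21 ± 0.20, beside 0.0115% of all genes. With 2 SE on either side, the chronic to baseline ratio lay between 0.687 and 1.43 for Gabra3 and between 0.923 and 1.59 for Gabrb2. The smallest p-values of the members, chronic against baseline, were those of Gabrb1 and Gabra4. Gabrb1 was at -0.55 ± 0.27 on the log2 scale (ratio 0.468 to 0.993, adjusted p = 0.59). Gabra4 was at -0.80 ± 0.40 (ratio 0.331 to 1.00, adjusted p = 0.61).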

How the data were processed

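Counts of reads per gene over exons, deposited by the authors as whole numbers, were made with cutadapt 3.1, HISAT2 2.1.0, SAMtools 1.9 and featureCounts 2.0.1 on mm10, as named in the submitters' processing notes, and the strand setting is not given in the sources used here. T-to-C conversion was deposited as a fraction per 3′ UTR interval with counts of covered T positions and conversions, which per the file headers came from slamdunk 0.4.3. The libraries hold 16150316 to 21228741 exon counts.

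The 26 amygdala libraries were grouped by the labels, and auditory cortex libraries are not analysed here. Expression was tested with edgeR 4.0.16 (R 4.3.3, limma 3.58.1): TMM scaling, filterByExpr, robust quasi-likelihood fits of 4 groups per table and of 6 groups for chronic against acute stress, two-sided, with Benjamini-Hochberg adjustment over all genes tested. All 7 members passed the filter. CPM were computed from the deposited counts. For conversion, the interval with most coverage was kept per gene (87.5% of covered T positions), genes had a mean of at least 2000 covered T positions, and conversions were fitted with log covered T positions as offset, rescaled to each library's overall rate for stress. Ranges of conversion ratios span 2 SE on either side.

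The members and gene lists were chosen with earlier results of these data known. All members were tested in every comparison, and values are printed for some of them. Up to 4 genes of smallest p per list are named, and up to 3 genes most like each member (mean of at least 5 CPM, log2(CPM + 1), group means removed). Fits were tested on simulated data. Alternatives were DESeq2 1.42.0, RLE size factors, scaling to pan-neuronal genes, no filter, 3′ UTR reads, other sets of groups, coverage minimums of 500 and 10000, summed intervals, rescaling, a replicate block and leaving out each replicate. Leaving out libraries low in glutamatergic markers was chosen after seeing the data. Python 3.11.15 handled the tables (pandas 2.3.3, numpy 2.4.6) and matplotlib 3.10.9 the figures. Some other subunit genes are not reported here.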

Additional observations from a re-analysis of the deposited data

Results flagged for a closer look

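In 8 of 70 groups of 4 or 5 samples, 1 sample lay far from the rest, by a rule that flags about 1 in 20 separate groups of normally spread values. For CPM these were Gabra3 at 133 in baseline DMSO replicate 2, Gabra4 at 183 in baseline DMSO replicate 4 and Gabrb1 at 142 in baseline 4sU replicate 3. For conversion they were Gabra3 at 0.157% in acute 4sU replicate 1, Gabra5 at 0.0469% in acute DMSO replicate 4, and Gabrd at 0.0357% in chronic 4sU replicate 3, 0.0505% in baseline 4sU replicate 2 and 0.0879% in baseline DMSO replicate 2. The Gabrd values rest on few covered positions, with 1 or 2 conversions in the flagged library and 0 in the rest of its group, which alone gives the flag. The groups of different genes also share libraries, so 8 of 70 cannot be set against that rate.

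The effect of chronic stress differed between 4sU and DMSO mice by the interaction test of edgeR for the members below, beside 38.0% of all genes. Of the groups in this test only baseline 4sU lies among the libraries that stood apart in 3′ UTR reads and myelin markers. The calls cannot be told apart from that division. The difference, 4sU effect minus DMSO effect on the log2 scale, was 0.97 for Gabrb2, 0.62 for Gabra2, 0.77 for Gabra4 and 0.33 for Gabra3. The calls of Gabra4 and Gabra3 were lost with 3′ UTR reads, and that of Gabra4 also with no filter on low counts (adjusted p = 0.051) and without any of 8 single libraries.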

How the results depend on the processing

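Of 2312 alternatives over 126 results of single genes, 2240 kept the side of the threshold, 147 of them with signs that differed where neither value was called, 31 lost the call, 40 gained one and 1 reversed. The reversal was Gabra5 in 4sU against DMSO mice under acute stress, -0.68 without the libraries low in glutamatergic markers, which are its lowest in the acute DMSO group, so that this direction was set by leaving them out. The cause of these changes was not tested.

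With pan-neuronal scaling, members called were 1 in acute against baseline DMSO mice and 5 in 4sU against DMSO at baseline. They were 5 in chronic against baseline 4sU mice and 5 in chronic against acute 4sU mice. The median of all genes moved by -0.10, -0.30, 0.27 and 0.25 in the same order. Calls over all genes moved with this scaling too, as given above for chronic against baseline 4sU mice, so these counts are not a result about the members. Without the libraries low in glutamatergic markers, members called were 3 for acute stress in DMSO mice. They were 1 for its mean over injections and 1 for its difference between injections. Gabra5 was among the 3 and alone in the others, and these calls were set by leaving out its lowest acute DMSO libraries. The other calls among the 3, Gabra3 and Gabra4, came with the loss of their highest acute DMSO libraries. The same setting gave 5 for 4sU against DMSO at baseline, where the 2 compared groups alone gave 6, beside 41.9% of all genes called in the main fit. For the difference between the chronic effects, 3′ UTR reads gave 2. For conversion at baseline, summed intervals gave 1 and rescaling gave 1. The shares of all genes called under these settings are not given beside the counts, which describe the members' calls alone.

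The replicate numbers did not pair the samples: of 35 same-numbered pairs 12 had a correlation of deviations over 0.1, with a range of -0.54 to 0.48. With a replicate block, the mean chronic effect had 1 member called, with Gabra2 lost (0.18, adjusted p = 0.064), and the difference between chronic effects 2, with Gabra4 (0.69, adjusted p = 0.090) and Gabra3 (0.31, adjusted p = 0.068) lost, and the counts for the other comparisons were within 1.5 times.

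Leaving out 1 replicate gave 0 to 1 members called for acute stress in DMSO mice and for its mean, 1 to 3 for the mean chronic effect, 3 to 4 for 4sU against DMSO under acute stress, for chronic stress in 4sU mice, for the difference between chronic effects and for chronic against acute 4sU mice, 1 to 2 for conversion at baseline and 2 to 3 under chronic stress. The other counts did not move. The shares of all genes called in the same fits are not given beside these counts, which describe the members' calls alone.

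Over all genes, comparisons with few calls moved by over 1.5 times. With edgeR and with DESeq2, calls were 43 and 94 for acute stress in 4sU mice (137 with those groups alone), 402 and 821 in DMSO mice (4 with those groups alone, 2391 once the glutamatergic-low libraries were left out), 382 and 667 for their mean, 0 and 20 for their difference, 0 and 11 for chronic stress in DMSO mice, 22 and 147 for 4sU against DMSO under chronic stress (0 with those groups alone), and 291 and 559 for chronic against acute DMSO mice (0 with those groups alone). Conversion had 1219 calls under chronic stress and 652 after rescaling, 26 for chronic stress in 4sU mice and 65 without rescaling, and 1 for acute stress and 0 without rescaling. Depth limits the conversion of Gabrd, with 7 conversions in 4sU mice and 4 in DMSO mice.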
